A study of Mus musculus with 6 samples.

Results

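The 9 genes described here, Pdgfra, Fap, Thy1, S100a4, Dpt, Cd248, Prrx1, Clec3b and Mfap4, are markers of the fibroblasts found in tumour stroma. They were taken as every probe set whose single gene symbol in the platform annotation is one of the 9, which gave 16 of the 45037 probe sets tested and 9 of 18193 genes with a symbol of their own. Pdgfra had 3 probe sets, Prrx1 had 6 and the other 7 genes had 1 each. The tumours grew from GLMT1 cells, a tumour line whose name stands for a lung metastasis of a GRS/A mouse, inoculated beneath the back skin of male GRS/A mice. Hosts had intact tenascin-C (WT, 3 tumours) or were tenascin-C-deficient GRS/A-TgH(TnC) mice (TNKO, 3 tumours). All hosts were 8 weeks old at the start, and their age is given as 10 weeks for each sample. The inoculated cells came from the same line in both groups, and the labels do not describe them as lacking Tnc. The comparison asks how expression in these tumours differed when the host lacked tenascin-C, a matrix glycoprotein.

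Fibroblasts of a tumour are host cells that lay down collagen and other matrix, respond to platelet-derived growth factor and signal to tumour, vascular and immune cells. No single gene marks all of them, so several markers are read together. Some are surface proteins (Pdgfra, Fap, Thy1, Cd248), one binds calcium inside the cell (S100a4), one is a transcription factor (Prrx1) and the others are secreted into the matrix (Dpt, Clec3b, Mfap4). Several are also expressed elsewhere: Thy1 in T cells and neurons, S100a4 in macrophages and some tumour cells, and Cd248 in pericytes. In RNA of whole tumours, fewer cells of a type and less RNA per cell cannot be told apart.

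Precision is limited by the number of arrays, 3 per group. The deposited values, read as log2 from their range, hardly differ between arrays. The median probe set spanned 5.46 millionths of a unit over the 6 tumours, so a difference in these units cannot be read as a fold change. Values by tumour are therefore given as millionths of a unit above the lowest tumour, and differences, TNKO minus WT, also in residual SDs, the spread of a probe set within the groups. Levels of different probe sets were not compared as amounts of RNA. They served to pick the brightest probe set of a gene and to set it against the array medians. Ranges and differences of different genes were set side by side as descriptions only. The brightest probe sets of the 9 genes had mean levels of 7.22 (Clec3b) to 10.42 (S100a4), against array medians of 6.57, and no detection calls were available. Tnc, the gene altered in the hosts, ran from 8.995 to 9.04 in WT and from 8.80 to 8.83 in TNKO tumours, lower in every TNKO tumour (limma adjusted p = 0.0537). Whether this probe set reads the altered stretch of the gene is unknown here, so the genotype label was left unchecked by it.

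Regulatory sequence is shown for 3 members whose behaviour differed in these tumours: S100a4, the member with the greatest host difference relative to its spread; Dpt, the member that ranged widest; and Prrx1, the transcription factor of the set. Each line gives the 250 bases before 1 annotated start, 5′ to 3′ on the gene's strand, from the RefSeq promoter table (GRCm38.p6), which holds 4 of the 9 members. They lie at chr3:90603520-90603769 (plus strand), chr1:164796413-164796662 (plus strand) and chr1:163313651-163313900 (minus strand). Capitals mark matches to the motifs searched on both strands.
S100a4: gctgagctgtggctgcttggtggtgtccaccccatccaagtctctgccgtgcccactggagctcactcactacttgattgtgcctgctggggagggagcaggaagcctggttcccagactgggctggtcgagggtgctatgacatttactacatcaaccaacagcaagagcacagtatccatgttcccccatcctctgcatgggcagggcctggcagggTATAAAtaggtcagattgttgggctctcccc
Dpt: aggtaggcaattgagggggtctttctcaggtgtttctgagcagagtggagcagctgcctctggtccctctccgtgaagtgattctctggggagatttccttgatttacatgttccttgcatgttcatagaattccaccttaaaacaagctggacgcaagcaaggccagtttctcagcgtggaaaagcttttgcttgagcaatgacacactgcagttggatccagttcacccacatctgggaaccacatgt
Prrx1: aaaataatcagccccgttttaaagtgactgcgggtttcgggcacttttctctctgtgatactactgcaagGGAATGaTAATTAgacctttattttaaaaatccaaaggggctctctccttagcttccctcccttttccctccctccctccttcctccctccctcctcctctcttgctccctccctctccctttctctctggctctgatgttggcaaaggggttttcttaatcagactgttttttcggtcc
The motifs were the TATA box (TATAAA, in 12.4% of all 32851 promoter windows of this length), the GC box (GGGCGG, 32.7%), the AP-1 motif (TGANTCA, 6.75%), the TEAD motif (GGAATG, 12.6%), a homeodomain motif (TAATTA, 4.84%) and the CArG box (1.47%). The capitals in the S100a4 window are a TATA box that begins 31 bases before the start. In the Prrx1 window a TEAD motif begins 180 bases and a homeodomain motif 173 bases before the start, without overlapping. No match was found in the Dpt window, nor in that of Pdgfra, which is not shown. A match is a description of the letters only.

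No fibroblast marker passed the test between hosts. By limma with Benjamini-Hochberg adjustment, 0 of the 16 probe sets had an adjusted p under 0.05, against 0.175% of all probe sets. With 3 arrays a group, a miss does not show that the hosts were alike. At an unadjusted p under 0.05 there were 3 of 16 (18.8%), close to the 20.3% of all probe sets, and they pointed in different directions: S100a4 higher in TNKO hosts and both dimmer probe sets of Pdgfra lower. In the brightest probe set of each gene the TNKO mean was the higher in 9 of 9 members, where 57.6% of all genes had the higher mean in TNKO hosts. The direction was not particular to the members: it held in 12 of 12 endothelial and 10 of 10 adipocyte genes, but in 0 of 12 skeletal muscle genes. The groups did not overlap in 2 of these 9 (S100a4 and Mfap4, both higher), against 26.1% of all genes in either direction. The median difference of the 9 was 1.10 residual SDs, beside 0.28 over all genes. After subtraction of array medians 3 of 9 means remained the higher, and 4 of 9 after quantile normalization, where 1.3% and 1.75% of all genes did. These scalings lowered the median difference over all probe sets to -0.000764 and -0.000538 units. Subtraction of medians shifts every probe set alike, so members with a difference smaller than that shift had to turn below 0.

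**Figure D1:**
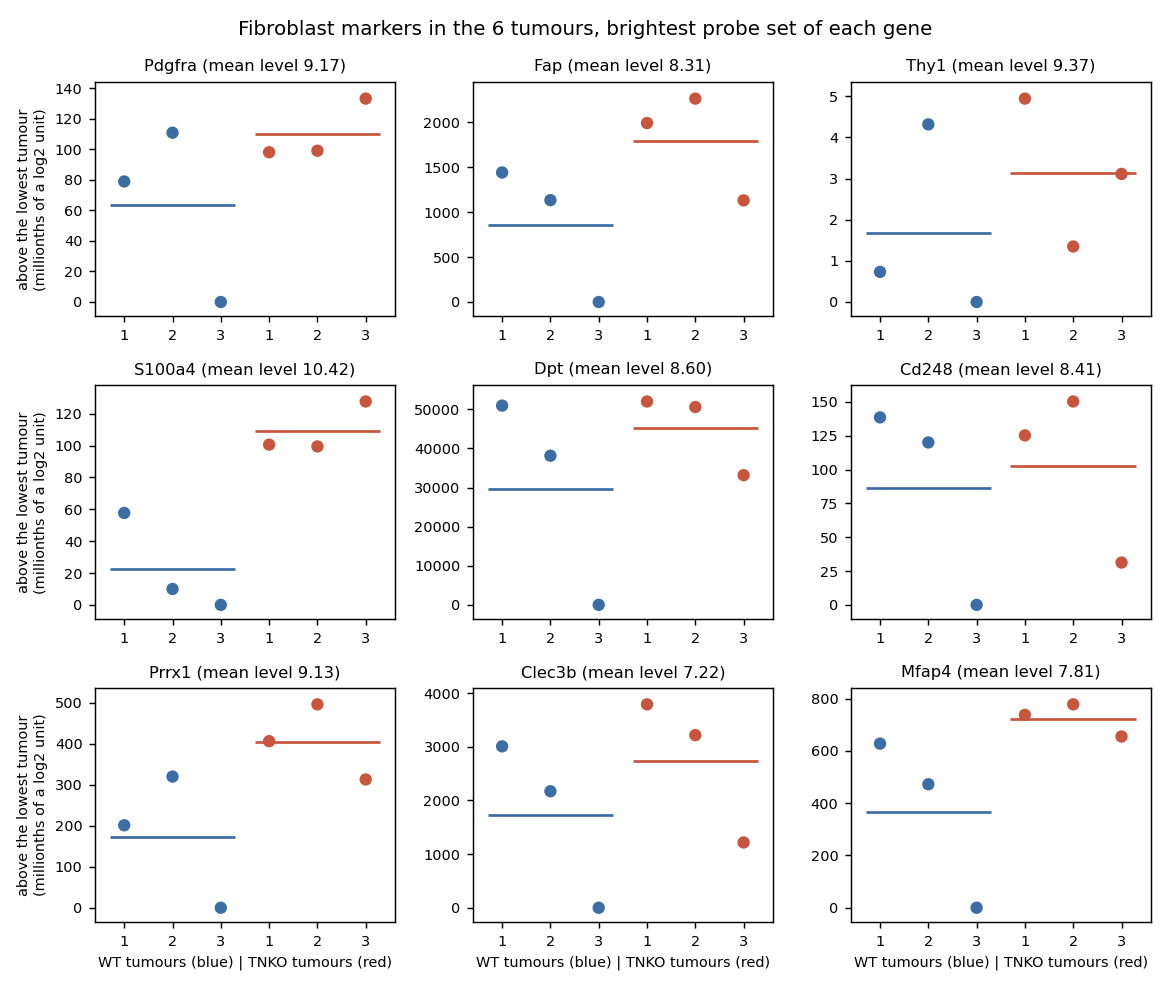
Level of each fibroblast marker in each tumour, in millionths of a log2 unit above the lowest tumour of that gene (vertical axis, linear, a different range for each gene), for the 3 WT (blue) and 3 TNKO (red) tumours; each point is 1 tumour and lines are group means. On the scale as deposited WT tumour 3 is at 0, the lowest, in all 9 panels (1 of 9 under either scaling), and only S100a4 and Mfap4 show groups that do not overlap.

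Pdgfra, the alpha receptor for platelet-derived growth factors, stood in its brightest probe set at 78.9, 111 and 0 millionths above the lowest tumour in WT tumours 1, 2 and 3. The TNKO tumours stood at 98.1, 99.1 and 133. The groups overlapped, since WT tumour 2 lay above 2 of the TNKO tumours. The difference was 46.8 millionths (SE 32.6, 95% interval -39.4 to 133, limma adjusted p = 0.488), or 1.10 residual SDs. Its other probe sets went the opposite way. The one at a level of 6.93 stood at 44.9, 86.6 and 72.3 in WT and at 19.2, 0 and 31.8 in TNKO tumours, a difference of -51.0 millionths (SE 14.3, limma adjusted p = 0.17). The one at 6.50 stood at 24.8, 10.9 and 13.01 in WT and at 1.24, 0.152 and 0 in TNKO tumours, a difference of -15.8 (SE 4.05, limma adjusted p = 0.151). In both, every TNKO tumour lay below every WT tumour, so the direction of Pdgfra depended on the probe set read. The mean over its 3 probe sets differed by -6.63 millionths (limma adjusted p = 0.793).

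Fap, a serine protease of the cell surface typical of activated fibroblasts, stood at 1441, 1134 and 0 millionths in WT tumours and at 1991, 2263 and 1131 in TNKO tumours. TNKO tumours 1 and 2 were the highest, and TNKO tumour 3 stood level with WT tumour 2. The difference was 937 millionths (SE 519, 95% interval -435 to 2309, limma adjusted p = 0.391). Cd248, also called endosialin, a surface glycoprotein of stromal fibroblasts and pericytes, stood at 139, 120 and 0 in WT and at 125, 150 and 31.3 in TNKO tumours. Here the low tumours were WT tumour 3 and TNKO tumour 3, and the other 4 lay together. The difference of 16.1 millionths (SE 52.9, 95% interval -124 to 156, limma adjusted p = 0.905) was the smallest of the 9 in residual SDs, at 0.23. Thy1, a small membrane-anchored glycoprotein, hardly ranged: 0.731, 4.32 and 0 in WT and 4.94, 1.35 and 3.11 in TNKO tumours. Tumours of both hosts were mixed through that range. Its difference was 1.45 millionths (SE 1.59, limma adjusted p = 0.67).

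S100a4, a calcium-binding protein long used as a fibroblast marker, separated the hosts best. It stood at 57.7, 9.98 and 0 millionths in WT tumours and at 101, 99.5 and 128 in TNKO tumours. Every TNKO tumour was above every WT tumour, with WT tumour 1 the nearest. The difference was 86.7 millionths (SE 18.7, 95% interval 37.2 to 136), or 3.53 residual SDs, with an unadjusted limma p of 0.0071 and an adjusted p of 0.123. Macrophage markers had the higher mean in TNKO hosts in 10 of 14 genes (1 of 14 under either scaling), and only Lyz2, lysozyme, had an unadjusted limma p under 0.05 (0.0476, adjusted p = 0.241). The mean scaled level of that list ran from -0.85 to 0.80 in WT tumours and from 0.00 to 0.39 in TNKO tumours. The part of macrophages in the S100a4 value was not tested.

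Prrx1, a homeodomain transcription factor of mesenchymal cells, stood in its brightest probe set at 201, 320 and 0 millionths in WT and at 407, 496 and 313 in TNKO tumours. WT tumour 2 lay just above TNKO tumour 3, and the groups otherwise kept apart. The difference was 232 millionths (SE 100.4, 95% interval -33.8 to 497, limma adjusted p = 0.294). Of the 5 other probe sets, 2 had the higher mean in TNKO hosts and 3 the lower, with differences of -5.49 to 11.9 millionths and limma adjusted p of 0.306 to 0.89. The probe set at a level of 6.39 was the only one of these in which the groups did not overlap, the WT tumours standing at 10.4, 12.0 and 7.93 and the TNKO tumours at 0, 6.39 and 7.47. Over all 7 dimmer probe sets of Pdgfra and Prrx1, 2 were higher and 5 lower.

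**Figure D2:**
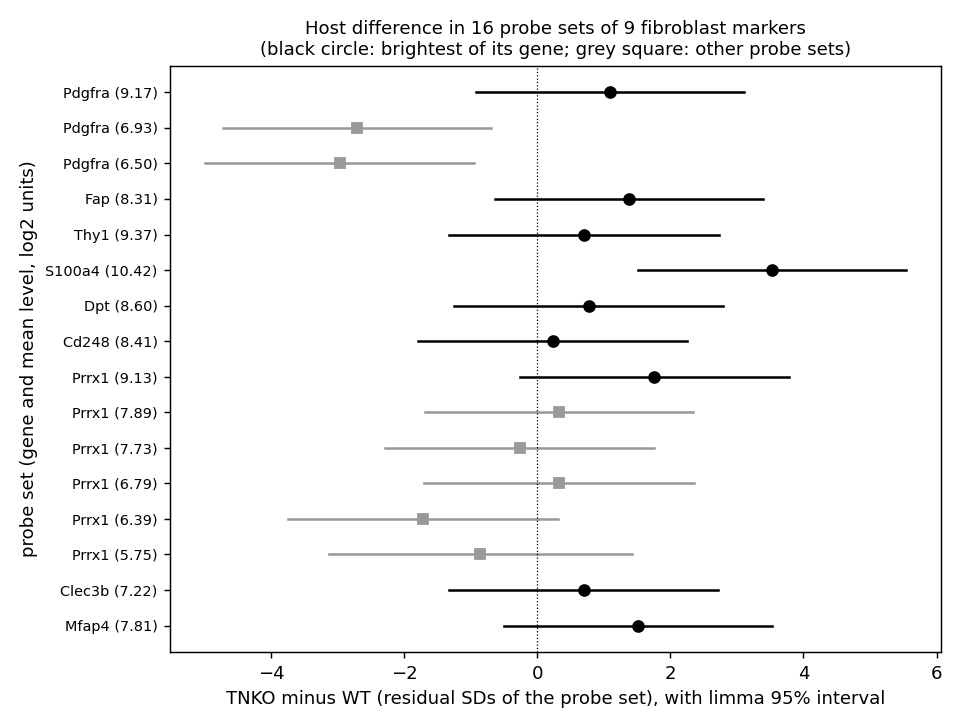
Difference TNKO minus WT of each of the 16 probe sets (horizontal axis, in residual SDs of that probe set) with limma's 95% interval, unadjusted; black circles are the brightest probe set of a gene and grey squares the dimmer ones of Pdgfra and Prrx1, with the mean level in log2 units beside the gene. All 9 black circles lie to the right of 0 on the scale as deposited (3 of 9 with array medians subtracted, 4 of 9 with quantile normalization), but only the interval of S100a4 among them leaves out 0, and 5 of the 7 grey squares lie to the left.

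Among the secreted members, Dpt, dermatopontin, a small dermal matrix protein that binds decorin, ranged widest. Its level was 8.61, 8.60 and 8.56 in WT tumours and 8.61, 8.61 and 8.59 in TNKO tumours. Only WT tumour 3 stood clearly apart: its gap to the next tumour took up 63.8% of the range. The mean of the WT tumours was 8.59 ± 0.027 and that of the TNKO tumours 8.60 ± 0.010 (SD, n = 3 each). They differed by 0.016 (SE 0.015, limma adjusted p = 0.631). Clec3b, tetranectin, a plasminogen-binding lectin-like protein, stood at 3008, 2171 and 0 millionths in WT and at 3791, 3217 and 1217 in TNKO tumours. The low tumours were again WT tumour 3 and TNKO tumour 3, and the groups overlapped. The difference was 1015 millionths (SE 1111, limma adjusted p = 0.669). Mfap4, a glycoprotein of elastic microfibrils, stood at 628, 473 and 0 in WT and at 738, 779 and 655 in TNKO tumours. All TNKO tumours lay above all WT tumours, though WT tumour 1 came within a small distance of TNKO tumour 3. The difference was 357 millionths (SE 179.8, 95% interval -118 to 832, limma adjusted p = 0.352).

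The 9 members also shared their lowest tumour. WT tumour 3 was the lowest of the 6 in 9 of 9 brightest probe sets, where it was the lowest in 21.6% of all genes and in 35.8% of the 1513 genes that spanned at least 100 millionths. TNKO tumour 1 or 2 was the highest in 7 of the 9, against 40.4% of all genes, the exceptions being Pdgfra and S100a4, with TNKO tumour 3 on top. With each gene scaled to mean 0 and SD 1 over the tumours, the members averaged 0.08, 0.05 and -1.62 in WT tumours 1, 2 and 3 and 0.74, 0.65 and 0.10 in TNKO tumours 1, 2 and 3. On this mean WT tumours 1 and 2 and TNKO tumour 3 lay close together, but single members differed. TNKO tumour 3 stood at 1.18 in S100a4 and at -1.01 in Cd248. WT tumour 2 stood at -1.07 in S100a4 and at 0.95 in Thy1. The gap from WT tumour 3 to the next tumour was widest in Dpt (63.8%), Mfap4 (60.7%) and Pdgfra (59.3%) and narrowest in S100a4 (7.81%) and Thy1 (14.8%). The low place of WT tumour 3 rests on the scale as deposited. After subtraction of array medians, and after quantile normalization, it was the lowest in 1 of 9 (against 0.533% and 0.781% of all genes) and TNKO tumour 3 in 8 of 9. The array median of TNKO tumour 3 (6.56980) lay above the others (6.56740 to 6.56758) by more than most members spanned, and 98.6% of all genes had TNKO tumour 3 lowest once medians were subtracted.

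**Figure D3:**
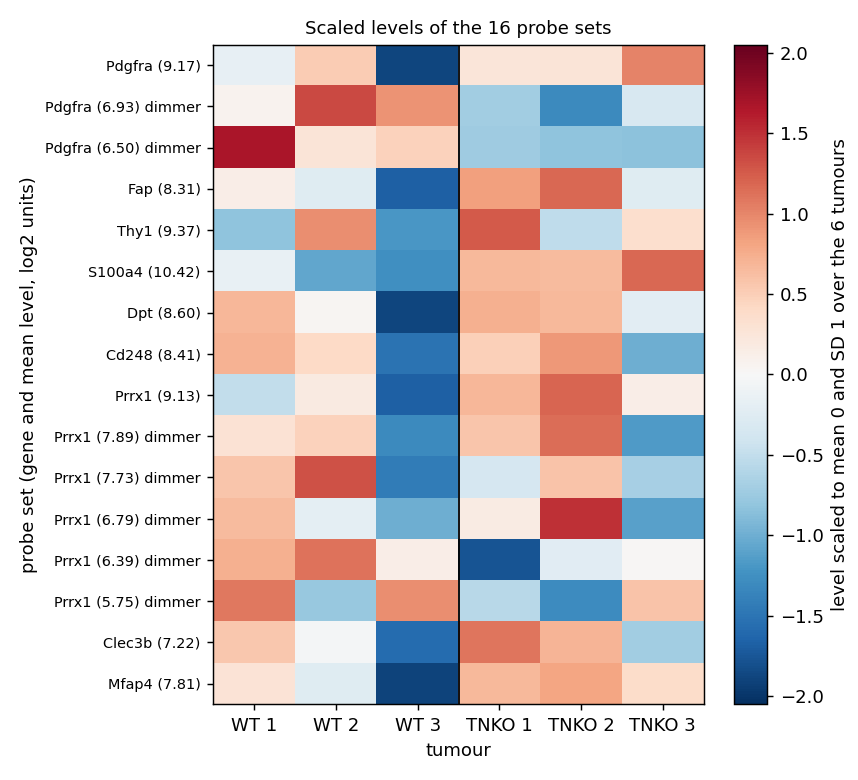
Level of each of the 16 probe sets in each tumour, scaled to mean 0 and SD 1 over the 6 tumours (colour, blue low and red high), with WT tumours left and TNKO tumours right of the line. WT tumour 3 is the lowest column in 11 of the 16 rows, including the brightest probe set of all 9 genes, while both dimmer Pdgfra rows run the other way.

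With each tumour left out in turn, S100a4 kept within 75.4 to 104 millionths (86.7 with all 6), Prrx1 within 145 to 305, Pdgfra within 15.2 to 70.6 and Mfap4 within 174 to 488. Fap ran from 508 to 1269, Clec3b from 152 to 1778, Thy1 from 0.548 to 2.77 and Cd248 from -27.0 to 51.6. The low end was the value without WT tumour 3 in 8 of these 9 genes, Dpt included, and without TNKO tumour 1 in Thy1. Since WT tumour 3 was the lowest in every member, leaving it out must lower TNKO minus WT, so only the sizes are informative. Dpt went from 0.016 to 0.00071 units (limma adjusted p = 0.985), Clec3b to 152 millionths (adjusted p = 0.968) and S100a4 to 75.4 (SE 19.6, adjusted p = 0.268) without it. Cd248 lay below 0 without WT tumour 3 and also without TNKO tumour 2 (-7.94).

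Taken pairwise over the 6 tumours, the members had a Pearson r above 0 in 36 of 36 pairs, from 0.212 (S100a4 with Cd248) to 0.95 (Dpt with Clec3b), with a median of 0.708. These are descriptions over 6 arrays that share WT tumour 3 at their low end. Fap, Dpt, Cd248, Prrx1, Clec3b and Mfap4 had an r of at least 0.70 in every pair, a grouping read from these same values. Pdgfra, outside it, had an r of 0.832 with Mfap4 and of 0.456 with Cd248. Against the mean of the other 8 members, Mfap4 had the highest r (0.966), followed by Fap (0.94), Dpt (0.936) and Prrx1 (0.914). Thy1 (0.506) and S100a4 (0.628) followed the set least. The genes with the profile most like the mean of the 9 were Rgs5, a regulator of G-protein signalling known from pericytes (r = 0.994), Aplnr, the apelin receptor (0.994), Thoc3 of an mRNA export complex (0.994), Cd34, a surface sialomucin (0.992), and Timeless, a replication fork protein (0.992). Of 18184 genes outside the set, 401 had an r of at least 0.9. Rgs5 stood at 9.48 in 5 tumours and at 9.47 in WT tumour 3, while Thoc3 spanned 0.581 millionths in all, so likeness of profile says nothing of its size.

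Other fibroblast genes were read from lists of related function. Counts of higher means and of WT tumour 3 lowest are on the scale as deposited unless stated. Over all genes, subtraction of array medians left 1.3% with the higher mean in TNKO hosts and 0.533% with WT tumour 3 lowest. Quantile normalization left 1.75% and 0.781%. No gene of these lists passed over all probe sets by limma. At an unadjusted p under 0.05 there were 3 of 18 interstitial, 2 of 19 matrix and 2 of 19 activated fibroblast genes, 3 of 18 mesenchymal factors, 1 of 6 genes of the platelet-derived growth factor pathway, 3 of 12 S100 relatives and 1 of 8 other relatives, against 18.4% of all genes. Their median differences were 0.81, 0.40, 0.75, 0.40, 0.08, 1.08 and 0.63 residual SDs in that order, beside 0.28 over all genes. A few genes, such as Dpp4 and Pdgfrb, stand in more than 1 list. Of 18 genes of interstitial and adventitial fibroblasts, 15 had the higher mean in TNKO hosts, and WT tumour 3 was the lowest in 15. After subtraction of array medians these were 7 and 3, and after quantile normalization 7 and 6. Those with the smallest p were Scara5, a ferritin receptor (-61.1 millionths, limma adjusted p = 0.0737), Igfbp6, which binds insulin-like growth factor (-408, adjusted p = 0.117), and Sfrp2, a secreted Wnt modulator (3206, adjusted p = 0.229). Scara5 and Igfbp6 were lower in every TNKO tumour than in any WT tumour, opposite to the brightest probe sets of the 9 markers. Of the 18, the groups did not overlap in 2 lower and 1 higher, against 26.1% of all genes in either direction. Of 19 matrix genes of fibroblasts, 14 had the higher mean in TNKO hosts and WT tumour 3 was the lowest in 13, and both counts were 2 under either scaling. Dcn, decorin, differed by -45.7 (limma adjusted p = 0.104), Fn1, fibronectin, by -1.03 (0.239) and Col5a2, a fibrillar collagen chain, by 104 (0.381).

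Among genes of activated fibroblasts WT tumour 3 was the lowest in 4 of 19, near the 21.6% of all genes, and 13 had the higher mean in TNKO hosts. Both counts were 0 under either scaling. Cthrc1, a secreted collagen-repeat protein, differed by -83.1 millionths (limma adjusted p = 0.163), Lrrc15, a membrane protein of matrix-producing fibroblasts, by 208 (0.215) and Tpm2, a tropomyosin, by -14.6 (0.264). Of 18 mesenchymal transcription factors, 13 had the higher mean in TNKO hosts and WT tumour 3 was the lowest in 7, and again both were 0 under either scaling. Prrx2, the paralog of Prrx1, differed by -1024 (limma adjusted p = 0.169), against 232 for Prrx1 itself. Every TNKO tumour was below every WT tumour in Prrx2. Of the 18, the groups did not overlap in 2 lower and 3 higher, against 26.1% of all genes in either direction. Osr2 differed by 6.02 (0.134) and Zeb1, a repressor of epithelial genes, by -3.35 (0.203).

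Ligands and receptors of the platelet-derived growth factor pathway were mixed, with 3 of 6 higher on the mean and 0 under either scaling. Pdgfd, a ligand, differed by 9.30 millionths (limma adjusted p = 0.179), Pdgfrb, the beta receptor, by -13.1 (0.332) and the receptor-like gene Pdgfrl by 325 (0.426). Relatives of S100a4 had the higher mean in 11 of 12, against 57.6% of all genes, but in 3 after subtraction of array medians and in 4 after quantile normalization. S100a1 differed by 65.9 (limma adjusted p = 0.121), S100a13 by 28.0 (0.156) and S100a16 by 29.8 (0.211). In these 3, named for their small p, every TNKO tumour was above every WT tumour, as in S100a4. The groups did not overlap in 3 of the 12 relatives, against 26.1% of all genes in either direction. WT tumour 3 was the lowest in 4 of the 12 (0 and 1 under those scalings). Among relatives in structure or name of Fap, Cd248, Mfap4 and others, 6 of 8 had the higher mean and WT tumour 3 was the lowest in 6, and both counts were 2 under either scaling. Dpp4, the protease paralog of Fap, differed by 237 (limma adjusted p = 0.381), Clec14a, of the Cd248 family, by 16.6 (0.415) and Mfap3 by -4.67 (0.233).

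Markers of other cells in the tumours were read beside the fibroblast markers. WT tumour 3 was the lowest in 10 of 12 endothelial and 8 of 10 adipocyte genes, in 6 of 12 genes of mural cells (pericytes and smooth muscle), in 6 of 11 T cell, 6 of 11 hair and epidermis and 3 of 14 macrophage genes. It was the lowest in 0 of 12 epithelial and 0 of 12 skeletal muscle genes. Under either scaling the counts were 0 of 12 endothelial, 1 of 12 mural, 0 of 11 T cell and 1 of 14 macrophage genes. In 6 of 10 adipocyte and 6 of 11 hair and epidermis genes WT tumour 3 was still lowest. Over all genes the share was 0.533% with medians subtracted and 0.781% with quantile normalization. These scalings put TNKO tumour 3 lowest in 98.6% and 97.5% of all genes, so low counts say nothing particular to a list. Mean scaled levels of the endothelial list ran from -1.40 to 0.01 in WT and from -0.26 to 1.28 in TNKO tumours, and those of the adipocyte list from -0.98 to -0.16 and from -0.37 to 1.49. Those of the mural list ran from -0.87 to 0.17 and from 0.18 to 0.27, and those of the T cell list from -0.67 to 0.48 and from -0.17 to 0.57. The epithelial list ran from -0.31 to 0.55 and from -0.58 to 0.56. Muscle ran from 0.20 to 0.94 and from -1.30 to 0.90, and hair and epidermis from -0.50 to 0.43 and from -0.34 to 1.19. As deposited, the TNKO mean was the higher in 12 of 12 endothelial, 10 of 10 adipocyte, 8 of 12 mural and 8 of 11 T cell genes. It was the higher in 7 of 11 hair and epidermis, 6 of 12 epithelial and 0 of 12 skeletal muscle genes. Under either scaling it remained so in 9 of 10 adipocyte and 7 of 11 hair and epidermis genes. The part of these cells in the fibroblast values was not tested.

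**Figure D4:**
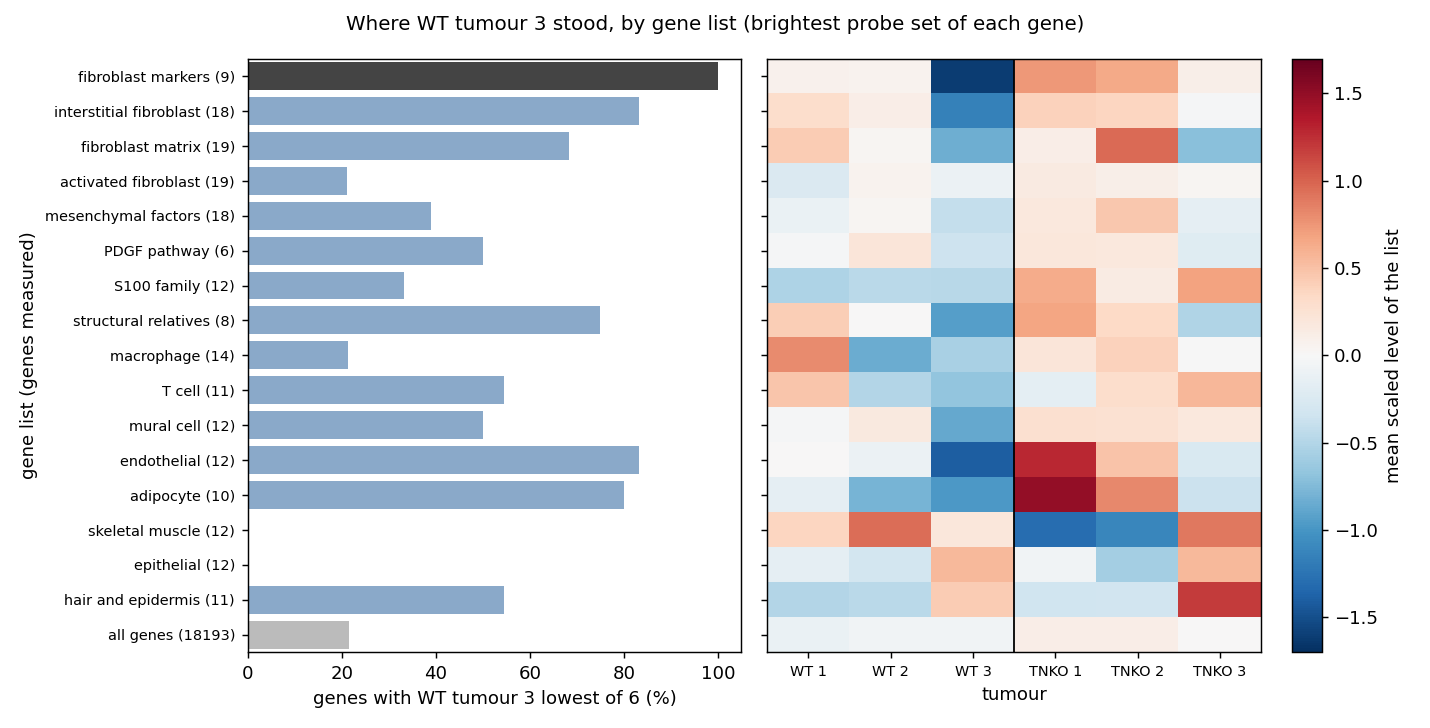
Left, share of the genes of each list in which WT tumour 3 was the lowest of the 6 tumours (bars from 0, percent), with the genes measured in brackets; right, mean scaled level of each list in each tumour (colour, each gene scaled to mean 0 and SD 1), with WT tumours left and TNKO tumours right of the line. The fibroblast markers reach 100% and the endothelial list 83.3%, against 21.6% of all genes and 0% of the epithelial and muscle lists. All are on the scale as deposited. With array medians subtracted the first 2 were 11.1% and 0%, against 0.533% of all genes.

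No gene of these cell lists passed over all probe sets by limma. At an unadjusted p under 0.05 there were 2 of 12 endothelial, 1 of 14 macrophage, 1 of 11 T cell, 1 of 12 mural, 1 of 10 adipocyte and 1 of 12 epithelial genes, and 0 of 12 muscle and 0 of 11 hair and epidermis genes, where 18.4% of all genes had such a p. Among endothelial genes the smallest p belonged to Cldn5, a tight junction protein (593 millionths, limma adjusted p = 0.123), Ptprb, a vascular phosphatase (221, adjusted p = 0.177), and Tie1, a receptor kinase (6.95, adjusted p = 0.311). Mural genes were led by Myh11, smooth muscle myosin (1.91, limma adjusted p = 0.105), Higd1b (63.1, adjusted p = 0.271) and Mcam (7.44, adjusted p = 0.278). In all 6, which were named for their small p, the TNKO tumours lay above the WT tumours without overlap. That was so in 3 of 12 endothelial and 3 of 12 mural genes. Over all genes the groups did not overlap in 26.1%, in either direction. Among adipocyte markers Fabp4, which carries fatty acids, differed by 0.56 units (limma adjusted p = 0.276), Lpl by 0.31 (0.259) and Slc2a4, the insulin-responsive glucose transporter, by 13.2 millionths (0.185). The muscle genes Acta1, Myh1 and Myh2 differed by -0.45, -1.65 and -0.24 units (limma adjusted p = 0.37, 0.398 and 0.258). The low tumours in these 3 were TNKO tumours 1 and 2, with Myh1 at 6.17 and 6.64. TNKO tumour 3 stood near the WT tumours, with Myh1 at 9.28 against 8.65 to 9.44 in WT. Without TNKO tumour 3 the differences were -0.71, -2.61 and -0.33 units. Mrc1 and Mertk, receptors of macrophages, differed by 2068 and 194 millionths (limma adjusted p = 0.459 and 0.293), and Lyz2 by 122. In T cells, which also carry Thy1, Cd4 differed by 7.36, Cd8a by 4.06 and the kinase Zap70 by 12.5 (limma adjusted p = 0.244, 0.308 and 0.349). Keratins of the epithelial list, Krt7 and Krt14, differed by -256 and -70.9 and the claudin Cldn3 by 1.68 (limma adjusted p = 0.269, 0.45 and 0.246). Hair keratins Krt27, Krt71 and Krt31 differed by 0.48, 0.028 and 0.19 units (limma adjusted p = 0.588, 0.54 and 0.574). TNKO tumour 3 stood far above the rest in these 3, with Krt27 at 7.46 against 6.05 to 6.10 in the other 5 tumours. Without TNKO tumour 3 the differences were 0.027, 0.0044 and 0.016 units. Every TNKO tumour was above every WT tumour in these 3 of the 11 genes, against 26.1% of all genes without overlap in either direction.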

How the data were processed

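The RNA of 6 tumours (3 WT and 3 TNKO hosts, biological replicates per the labels) was measured on 1-colour Affymetrix arrays. RNA input was 100 ng per the labels' protocols. The authors deposited 1 normalized log2 value per probe set and array. Per the submitters' processing notes they used R 2.7.2. How probe sets were summarised and normalized, and the log base, is not given in the sources used here, so log2 was taken from the range of the values. After 64 control probe sets were removed, 45037 were tested, of which 34945 had 1 gene symbol, 932 several and 9160 none in the platform annotation (2016). A gene with several was represented by its brightest, by mean over the 6 arrays.

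TNKO minus WT was tested with limma 3.58.1 in R 4.3.3 (lmFit, eBayes), two-sided, on the values as deposited, with Benjamini-Hochberg adjustment over 45037 probe sets and a threshold of 0.05. The procedure was tested on simulated data. Between 21 and 43 values were identical between any 2 arrays, so none was taken as a copy. No batch is labelled. The members and all gene lists were chosen with earlier results of these data known, and lists were described by counts and medians with no set test. Named were all members, up to 3 genes per list with the smallest unadjusted p, and the 5 genes with the highest Pearson r to the mean scaled profile of the members. The fit was repeated with quantile normalization, with array medians subtracted, with trended and robust eBayes, on probe sets above the median level only, with a replicate block, without each array and on means over probe sets. The counts of WT tumour 3 as lowest under both scalings were added after the data were examined.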

Additional observations from a re-analysis of the deposited data

How the results depend on the processing

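In none of these alternatives did a probe set of the 9 markers pass adjustment by limma. Over all probe sets both scalings lowered the median difference, to -0.000538 (quantile normalization) and -0.000764 (array medians subtracted), and reversed the smaller differences. With quantile normalization Pdgfra became -0.000599, Thy1 -0.000317, S100a4 -0.00084, Cd248 -0.000717 and Prrx1 -0.000973. With medians subtracted these were -0.000717, -0.000762, -0.000677, -0.000748 and -0.000532, and Mfap4 was -0.000407. Dpt, Fap and Clec3b kept their direction under both. The mean over probe sets turned Pdgfra to -6.63e-06. The members with WT tumour 3 lowest went from 9 to 1 under either scaling.

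The count of member probe sets at an unadjusted p under 0.05 was 3, became 0 under both scalings, and ran from 2 to 4 with 1 array left out. Over all probe sets limma called 79, 0 with quantile normalization (591 at an unadjusted p under 0.05), 285 among the brighter probe sets, where fewer were tested, and 0 to 73 with 1 array left out. It called 0 without WT tumour 1 or 3 (7144 and 6807 at an unadjusted p under 0.05). Leaving out 1 array moved Cd248 between -2.70e-05 and 5.16e-05, below 0 without WT tumour 3 or TNKO tumour 2.

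With the replicate number as a block, 5 member probe sets had an unadjusted p under 0.05, 0 passed adjustment, and 0 of all probe sets were called (7816 at an unadjusted p under 0.05). The unadjusted limma p of Clec3b went from 0.406 to 0.0049, that of Fap from 0.136 to 0.017 and that of Prrx1 from 0.074 to 0.012. For S100a4 it rose from 0.0071 to 0.036. The labels name no pairing. Over all probe sets the deviations of same-numbered tumours correlated at 0.029, -0.016 and 0.0053. No tumour correlated best with the tumour of its own number. All correlations between a WT and a TNKO tumour lay between -0.079 and 0.072, so whether the tumours were paired could not be decided from them. The cause of these changes was not tested. Signal over background could not be judged, since no detection calls were available.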

Other observations

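Of the S100 relatives, S100a3, a calcium-binding protein of the hair cuticle, ranged far wider than S100a4. It stood at 6.87 in TNKO tumour 3 and between 5.99 and 6.01 in the other 5 tumours, and its host difference had a limma adjusted p of 0.627. S100a14 showed the same tumour on top, 18594 millionths above the lowest, with the other 5 at 0 to 2042. In the hair and epidermis list TNKO tumour 3 was the highest in 7 of 11 genes. S100a8 and S100a9, which neutrophils carry, were highest in TNKO tumour 1, at 2120 and 1473 millionths, followed by TNKO tumour 3 at 1814 and 1117. In TNKO tumour 2 they stood at 340 and 88.7, within the WT range of both. These genes were chosen after their values were seen.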
